A study of Mus musculus with 2 samples.

Results

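The 10 genes described here are ligands and receptors of the interleukin 1 family: the ligands Il1a, Il1b, Il1rn and Il18 and the receptor chains Il1r1, Il1r2, Il1rap, Il1rl1, Il1rl2 and Il18rap. They were found by gene name among the non-control probes of both array files, and all 10 were present, with 21 of the array's 41174 probes and 39 of its 43379 spots. The 2 cultures compared were M/E cells, a mouse bone marrow line immortalised through the leukaemia fusion oncogene MLL/ENL, both of genotype Mef2c del/-, in which the labels describe no functional Mef2c for the control. The control cells were infected with the empty vector MYs-iPAC, the others with MEF2C-ASR, a Mef2c mutant in histone deacetylase binding that is constitutively active. Both were grown in RPMI with 10% FCS, SCF at 100 ng/ml, and IL3, GM-CSF and IL6 at 10 ng/ml each, and RNA of harvests at 6, 24 and 48 h was pooled per culture, so that no time course can be read. Each group was 1 pool of RNA on 1 one-colour array. No difference below therefore has a replicate check or a p-value, and "higher" and "lower" describe these 2 arrays.

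Interleukin 1 alpha and beta are inflammatory cytokines that signal through IL1R1 and its partner chain IL1RAP, which recruit MYD88 and IRAK kinases and lead to NF-kB and MAP kinase activity. The pathway is held back at the surface by the receptor antagonist IL1RN and by IL1R2, a decoy receptor that binds the ligand without signalling. In myeloid cells Il1b is made as an inactive precursor that caspase 1 cleaves in the inflammasome, and IL1R2 is typical of neutrophils and monocytes.

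Il1b and Il1r2 were the members at least 2-fold higher with MEF2C-ASR, Il1b by 6.84-fold and Il1r2 by 3.91-fold and 4.30-fold on its 2 probes. Il1rl1, which encodes the IL-33 receptor ST2, was 2.49-fold lower on the probe of its membrane-bound form. Il1rn, Il18, Il1rap and Il18rap differed by less than 2-fold, Il1a and Il1rl2 stood well above background on the MEF2C-ASR array alone, and Il1r1 was well above background on neither array. A probe is called measured here where the scanner software flagged it well above background on the 2 arrays, with no saturation, which held for 11 of the 21 member probes and 7 of the 10 genes. Of these 11 probes, 3 were at least 2-fold higher and 1 at least 2-fold lower. Over the whole array 1.6% of 24379 measured probes were at least 2-fold higher and 1.78% were at least 2-fold lower. The median log2 difference was 0.49 over the 11 member probes and -0.02 over all measured probes.

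The RefSeq promoters of the 2 genes that were higher, and of Il18, are shown because the expressed factor, MEF2C, binds DNA. Each covers 250 bases before to 50 bases after the annotated start, read in the direction of transcription on GRCm38.p6. Il1b lies on the minus strand at chr2:129371090-129371389, Il1r2 on the plus strand at chr1:40085843-40086142 and Il18 on the plus strand at chr9:50554450-50554749. Capitals mark matches to the motifs given after the sequences.
Il1b: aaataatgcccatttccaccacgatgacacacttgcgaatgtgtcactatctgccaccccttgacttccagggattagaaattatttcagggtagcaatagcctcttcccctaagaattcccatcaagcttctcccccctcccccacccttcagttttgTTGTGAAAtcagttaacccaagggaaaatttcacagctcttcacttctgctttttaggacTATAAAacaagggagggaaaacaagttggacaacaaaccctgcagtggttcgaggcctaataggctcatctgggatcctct
Il1r2: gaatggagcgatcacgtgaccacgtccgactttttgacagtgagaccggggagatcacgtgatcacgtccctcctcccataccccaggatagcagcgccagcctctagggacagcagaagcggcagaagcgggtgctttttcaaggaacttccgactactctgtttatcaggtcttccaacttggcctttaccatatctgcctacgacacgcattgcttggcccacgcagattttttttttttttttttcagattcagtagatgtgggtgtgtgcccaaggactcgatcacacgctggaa
Il18: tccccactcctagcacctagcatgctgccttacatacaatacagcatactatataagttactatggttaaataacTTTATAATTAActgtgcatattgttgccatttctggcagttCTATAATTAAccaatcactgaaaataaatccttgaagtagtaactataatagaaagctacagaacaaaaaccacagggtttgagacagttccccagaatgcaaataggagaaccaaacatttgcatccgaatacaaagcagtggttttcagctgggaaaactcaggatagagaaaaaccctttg

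All 10 members had at least 1 entry in the RefSeq promoter table, with 14 promoters in all. They were searched on both strands for the MEF2 consensus, the NF-kB consensus, the AP-1 site TGANTCA, the C/EBP motif TTNNGNAA, the PU.1 core GAGGAA and the box TATAAA. The MEF2 consensus was found in 1 of the 14 member promoters, that of Il18, with matches beginning 174 and 134 bases before the start, and in 3.19% of 32851 promoters of the same length. The first of these overlaps a TATAAA match on the other strand. Il18 differed by 1.20-fold between the arrays. The promoter of Il1b held TTNNGNAA beginning 91 bases and TATAAA beginning 31 bases before the start, which are present in 40.7% and 13.6% of all promoters. The promoter of Il1r2 held none of the 6 motifs, which says only that these letters are not in this window.

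**Figure D1:**
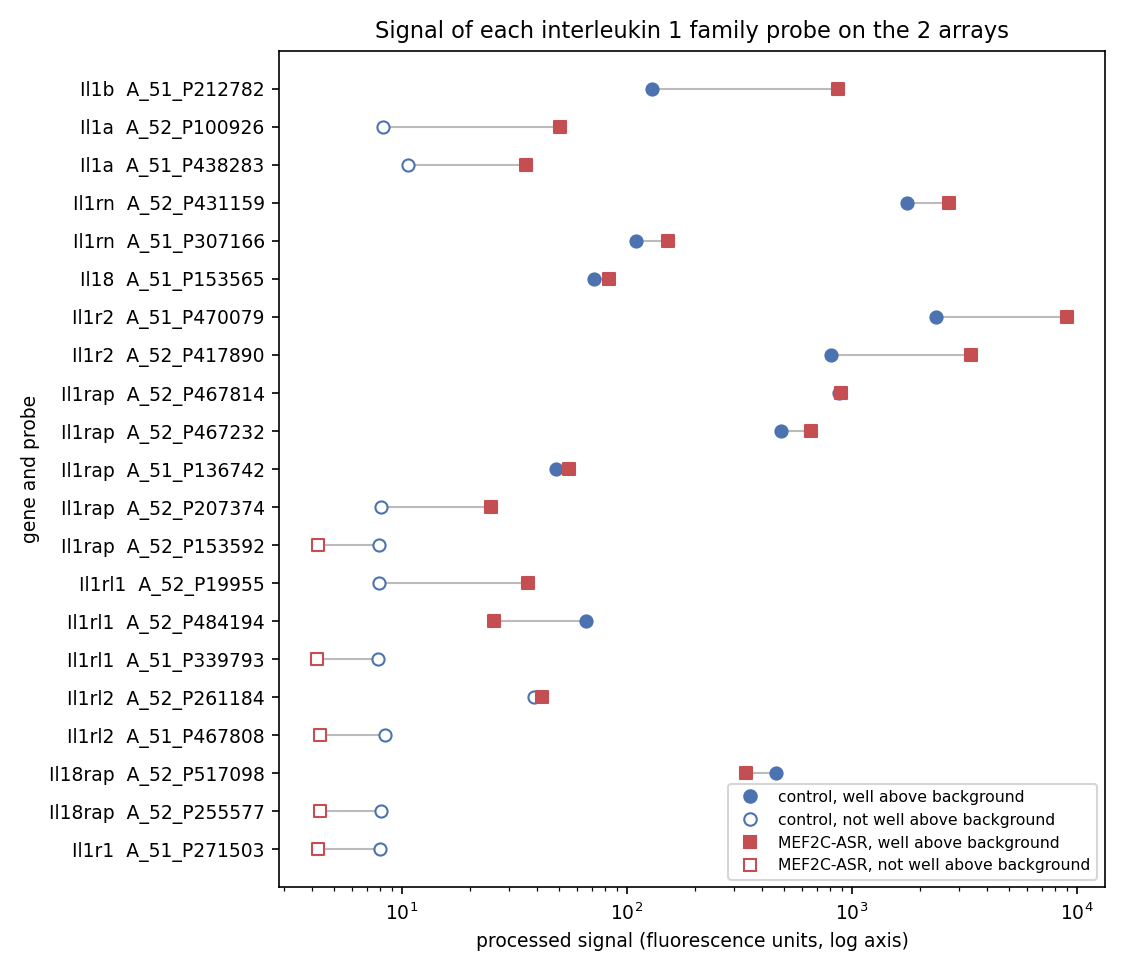
Processed signal of each of the 21 member probes on the control array (blue circles) and the MEF2C-ASR array (red squares), on a log axis in fluorescence units, with open symbols where the probe was not well above background. The Il1b probe and both Il1r2 probes lie far apart on the 2 arrays, while open control symbols near a signal of 8 mark probes with no measurable control value.

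Among the ligands, Il1b was printed 10 times on each array, so its spotting error is known. The control spots read between 118 and 144 with a median of 129 (processed fluorescence signal), and the MEF2C-ASR spots between 813 and 919 with a median of 862. All 10 spots were well above background on both arrays, and the 2 sets of spots did not overlap. After each array was scaled to its 75th percentile, which was 1272 for control and 1240 for MEF2C-ASR, the log2 difference was 2.77 ± 0.07 (SD over 10 spots of 1 array pair, not replicates), with single spots between 2.69 and 2.90. Only 8 of the 24379 measured probes had a larger difference. These 8 include the probes of the chemokine Ccl2 (2.81) and of the formyl peptide receptor Fpr1 (2.79).

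Il18, a ligand that like Il1b is matured by caspase 1, was printed 10 times as well. Of its spots, 2 read 34.4 and 39.1 on the control array, were flagged there as population outliers and were left out. The 8 others read between 64.4 and 79.2 with a median of 72.2 for control, and between 66.8 and 97.6 with a median of 84.6 for MEF2C-ASR. These ranges overlap, and 7 of the 8 spots were higher with MEF2C-ASR. The log2 difference was 0.26 ± 0.25 (SD over 8 spots), and 0.45 ± 0.51 over all 10 spots.

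**Figure D2:**
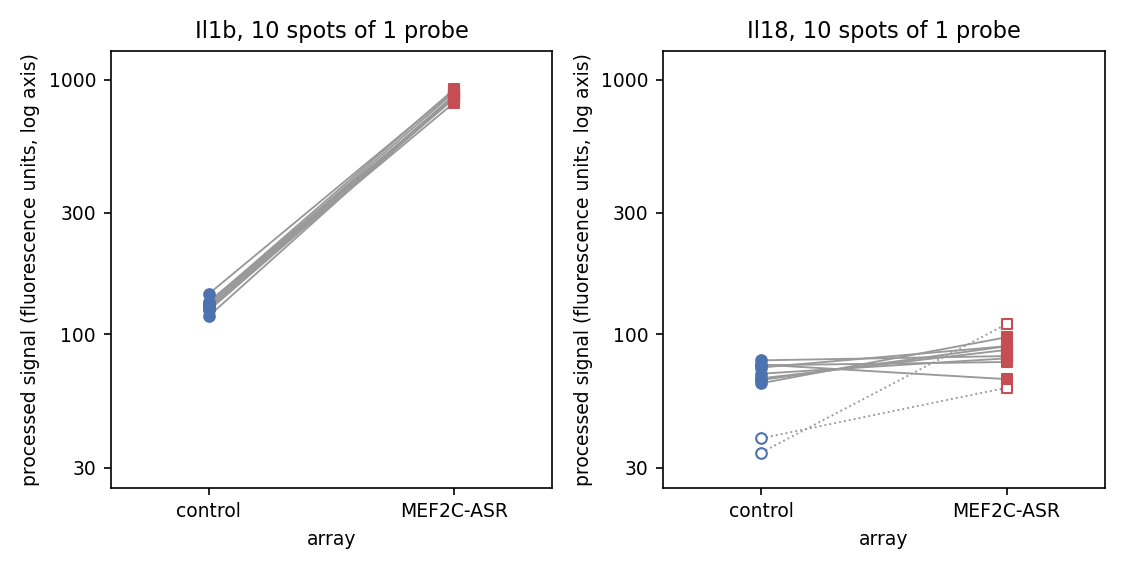
Processed signal (fluorescence units, log axis) of the 10 spots of the Il1b probe and the 10 spots of the Il18 probe on the control and MEF2C-ASR arrays; lines join the 2 readings of a spot position, and open symbols with dotted lines are spots flagged as outliers. The Il1b spots form 2 separate groups, between 118 and 144 and between 813 and 919, whereas the Il18 readings overlap.

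Il1rn, the secreted receptor antagonist, had 2 measured probes of the same transcripts. The probe A_52_P431159 read 1759 for control and 2715 for MEF2C-ASR, a log2 difference of 0.66. The probe A_51_P307166 read 110 and 152, a difference of 0.51. Both probes were higher with MEF2C-ASR and both stayed under 2-fold.

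Il1a, the alpha form of the cytokine, had 2 probes that stood well above background on the MEF2C-ASR array alone. They read 8.22 and 10.7 on the control array, close to the median of 8.17 over its negative control spots. On the MEF2C-ASR array they read 50.6 and 35.7. Because the lowest signal well above background on the control array was 38.3, the first probe was at least 1.36-fold higher, and for the second no fold can be given. The first probe also carried a flag for an outlying local background, and with such spots left out Il1a had no bound. Of the 5 member probes well above background with MEF2C-ASR alone, none had a bound of 2-fold or more, against 3.56% of 3282 such probes on the whole array.

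Among the receptors, the decoy Il1r2 was higher with MEF2C-ASR on both of its probes, in near equal measure. The probe A_51_P470079 read 2374 for control and 9057 for MEF2C-ASR, a log2 difference of 1.97. The probe A_52_P417890 read 806 and 3377, a difference of 2.10. The probes differed from each other by 0.14 and each had 1 spot. The scanner software's own error estimate for the log2 difference was 0.20 for each. Probes of a mean level above -2, like both of these and that of Il1b, carried a spotting SD of 0.05 for the difference of 1 spot, estimated from 97 probes printed at least 5 times. At that brightness 1.06% of 15250 probes were at least 2-fold higher and 0.44% at least 2-fold lower. Il1b lies near the edge of this group, with a level of -3.29 for control and -0.52 for MEF2C-ASR. For mean levels from -4 to -2 the spotting SD was 0.23, and 3.16% of 6042 probes were at least 2-fold higher and 3.05% at least 2-fold lower.

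Il1r1, the signalling receptor for both forms of interleukin 1, had 1 probe, which read 8.0 for control and 4.24 for MEF2C-ASR. Neither reading was well above background, so a difference was not detectable with this probe. The partner chain Il1rap had 5 probes, of which 3 were measured. Their log2 differences were 0.06 (880 and 894), 0.49 (482 and 660, annotated to transcript variant 2) and 0.22 (48.5 and 55.1, transcript variant 1). All 3 were under 2-fold. The probe A_52_P207374 was well above background with MEF2C-ASR alone, at a signal of 24.8, and A_52_P153592 on neither array.

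Il1rl1 encodes the ST2 chain, made as a membrane receptor from transcript variant 1 and as a soluble form from variant 2, and 1 of its 3 probes was measured. The probe annotated to variant 1 alone read 65.8 for control and 25.7 for MEF2C-ASR, a log2 difference of -1.32. The probe annotated to both variants read 7.91 on the control array, not well above background, and 36.5 with MEF2C-ASR, where it was. The probe annotated to variant 2 alone, at 7.84 and 4.18, was well above background on neither array. Since 36.5 lies under the lowest signal well above background on the control array, neither a fold nor a direction can be given for the second probe, and the difference rests on the first. Below a mean level of -4, where the variant 1 probe lies, the spotting SD was 0.27 over 20 probes, and 5.96% of 3087 measured probes were at least 2-fold lower against 1.23% at least 2-fold higher. Signals of the negative control spots had an SD of 15.5 for control and 3.08 for MEF2C-ASR. The reading of 25.7 lies below the lowest signal well above background on the control array, and with that floor applied to both arrays the Il1rl1 probe was no longer measured. With the normexp background model, fitted without 5 aberrant spots of the control array, its difference was -0.55.

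Il18rap, the accessory chain of the IL-18 receptor, had 1 measured probe at 458 for control and 338 for MEF2C-ASR, a log2 difference of -0.40. Its other probe was well above background on neither array. Il1rl2, the receptor for interleukin 36, read 38.5 and 42.1 on 1 probe, with MEF2C-ASR alone counted as well above background. The 1.12-fold between them, 0.16 on the log2 scale, is the ratio of the readings and no lower limit. The scanner software's own error for this difference was 0.40, so no direction is given. Its other probe was well above background on neither array.

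**Figure D3:**
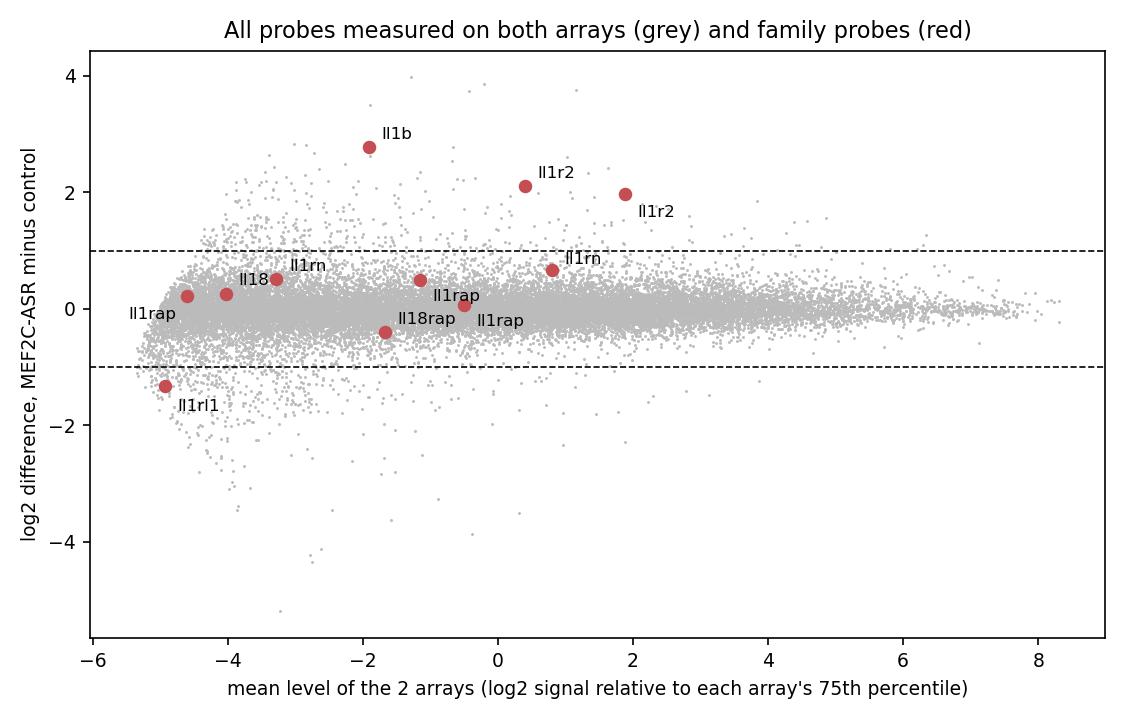
Log2 difference (MEF2C-ASR minus control) of all 24379 measured probes (grey) and the 11 measured member probes (red, named) against the mean level of both arrays, in log2 signal relative to each array's 75th percentile; dashed lines mark 2-fold. Il1b and both Il1r2 probes lie above the upper line and Il1rl1 lies below the lower line at the dim end, where grey points also spread widely.

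Several of these genes lie side by side, which allowed their chromosomal neighbours to be read. In the RefSeq gene order Il1r2, Il1r1, Il1rl2, Il1rl1, Il18r1 and Il18rap follow each other on chromosome 1 with no other protein-coding gene between them. Il1r2 was 2.04 higher on the log2 scale as the mean of its probes, whereas Il1rl1 and Il18rap in the same cluster were at -1.32 and -0.40. Map4k4, the nearest measured gene beyond Il1r2, stood at -0.03. Il1a and Il1b are adjacent on chromosome 2, and the nearest measured genes on either side of the pair, Ckap2l and Sirpa, stood at -0.24 and 0.11. Counting the 2 nearest protein-coding genes on each side of every member, 9 that are no members were measured, with log2 differences from -0.67 to 0.31 and none past 2-fold. Over all measured genes 1.74% were at least 2-fold higher and 1.91% at least 2-fold lower, so 9 genes would seldom include any. Per the array's own annotation the Il1b probe lies on the minus strand at chr2:129105464-129105523, the Il1r2 probe A_51_P470079 at chr1:40362239-40362298 and the Il1rl1 variant 1 probe at chr1:40705585-40705644, both on the plus strand. Since no source used here names the build of those coordinates, they cannot be set against the GRCm38.p6 promoters.

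The other ligands and receptors of the family differed by less than 2-fold wherever they were measured. Of 6 other ligands 3 were measured, with a median log2 difference of 0.04. Il33, the ligand of ST2, read 506 for control and 429 for MEF2C-ASR, a difference of -0.20. Il36g, listed on the array as Il1f9, read 756 and 886 as the mean of its 2 probes, a difference of 0.27. Of 5 other receptors and binding proteins 3 were measured, all above 0, with a median of 0.44. Sigirr, an inhibitory receptor, read 735 and 1050, a difference of 0.55, and Il18bp, a soluble trap for IL-18, read 371 and 403, a difference of 0.16. Il18r1, the ligand-binding chain of the IL-18 receptor, was well above background with MEF2C-ASR alone, at least 1.57-fold higher. That bound was 1.25-fold with the normexp background model fitted without the aberrant spots.

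Genes that mature or release the ligands mostly differed little between the arrays. Of 19 genes of the inflammasome and of ligand processing, 16 were measured, 14 of them above 0 against 44.8% of all measured genes, with a median of 0.21. With spike-in scaling 9 of the 16 were above 0, against 24.4% of all genes, and the median was 0.07. P2rx7, the ATP-gated channel that triggers the inflammasome, was the 1 gene at least 2-fold higher, and none was at least 2-fold lower. It read 52.0 for control and 118 for MEF2C-ASR, a log2 difference of 1.22 that fell to 0.62 with normexp fitted without the aberrant spots and to 0.58 with its dim probes kept. The sensor gene Nlrp1a was well above background with MEF2C-ASR alone and at least 2.56-fold higher. That bound was 1.42-fold with the same normexp fit.

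Of 26 genes of IL-1 receptor signalling, 25 were measured and none was 2-fold higher or lower as the mean of its probes, with 16 above 0, 9 below 0 and a median of 0.05. With spike-in scaling 9 of the 25 were above 0 and the median was -0.10. At that scale 24.4% of all measured genes were above 0, with a median of -0.17. The 2 of highest level were Mapk14, which encodes the kinase p38 alpha, at -0.06, and Ecsit, an adaptor of the pathway, at -0.20. The ends of the list were Peli1 at -0.77 and Peli2 at 0.83, chosen for naming after their values were seen. Both encode ubiquitin ligases of the Pellino family that act on IRAK kinases. The measured Peli1 probes stood apart, at -1.38, -0.53 and -0.40, the first past 2-fold lower. For comparison, at the main scaling 44.8% of 16574 measured genes were above 0 and the median over all genes was -0.03. Of these genes 1.74% were at least 2-fold higher and 1.91% at least 2-fold lower.

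Genes known to be induced by IL-1 signalling differed mostly by less than 2-fold where they could be measured. Of 22 such genes 13 were measured, with a median of 0.58, and 13 were above 0, against 44.8% of all measured genes. With the spike-in spots as the scale, which lowers every difference by 0.14, 12 of the 13 and 24.4% of all measured genes were above 0 and the median was 0.43. The 3 at least 2-fold higher were the chemokine Ccl2, the acute phase gene Saa3 and the cytokine Tnf. Ccl2 read 66.7 for control and 456 for MEF2C-ASR, a log2 difference of 2.81. Saa3 read 1751 and 5559, a difference of 1.70. Tnf read 1100 and 2285, a difference of 1.09 that was 0.95 with the spike-in spots as the scale. The chemokine Cxcl2 was well above background with MEF2C-ASR alone and at least 2.53-fold higher, or 1.86-fold with normexp fitted without the aberrant spots. The other 8 unmeasured genes of the list include Il6, Cxcl1, Ptgs2 and Csf3. Many of the 13 also respond to other inflammatory signals, and the list does not tell these apart. Lcn2 of this list, and Elane, Prtn3 and Ctsg of the processing list, are granulocyte genes as well and stand in that marker list too.

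**Figure D4:**
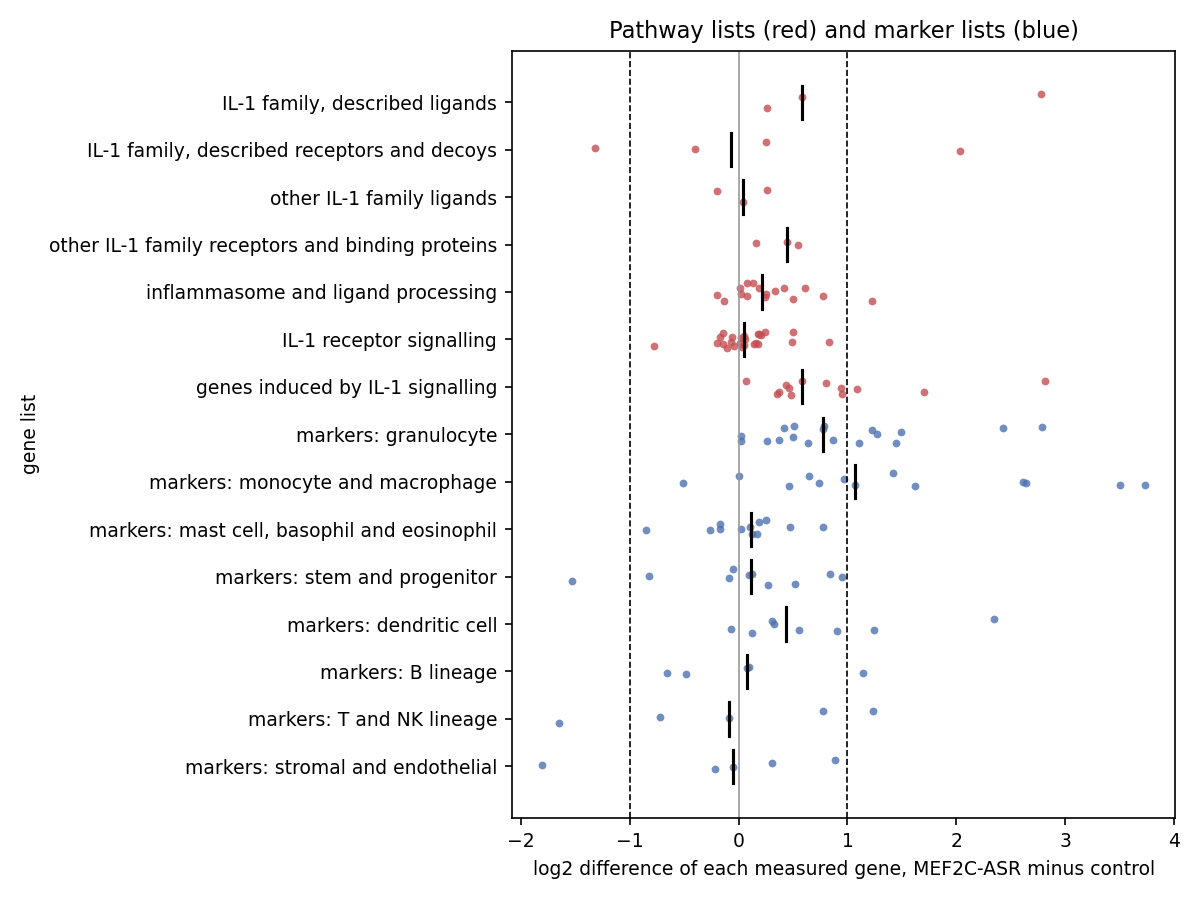
Log2 difference (MEF2C-ASR minus control) of every measured gene of the 7 pathway lists (red) and 8 marker lists (blue), with a black bar at the median of each list and dashed lines at 2-fold. At the scaling shown, the genes induced by IL-1 signalling lie above 0 (12 of 13 with spike-in scaling), IL-1 receptor signalling genes centre on 0.05 (-0.10 with spike-in scaling), and a monocyte and macrophage marker, Clec4n at 3.73, lies furthest to the right. The median over all measured genes was -0.03, and -0.17 with spike-in scaling.

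Some markers of mature myeloid cells, which express Il1b and Il1r2, were at least 2-fold higher as well, and most others were above 0 but under 2-fold. Of 20 granulocyte markers 18 were measured, all above 0, with a median of 0.78 and 7 at least 2-fold higher. Over all measured genes 44.8% were above 0 and 1.74% at least 2-fold higher. The summed level of the granulocyte markers went from 543 to 760 times the 75th percentile signal. Fpr1 and the collagenase gene Mmp8 had the widest differences of that list, 2.79 and 2.42, while Cd177 and Ctsg stood at 0.02 each. With spike-in scaling 16 of the 18 were above 0 and 6 at least 2-fold higher. Of 18 monocyte and macrophage markers 13 were measured, 12 above 0 and 7 at least 2-fold higher, with a median of 1.07 and a summed level of 33.4 and 73.3. Genes with bright probes weigh most in such sums, in this list Lyz1 (24219 for control and 49600 for MEF2C-ASR) and Lyz2 (12541 and 23963). Clec4n and Trem2, both receptors of macrophages, had the widest differences, 3.73 and 3.50. Fcgr1 stood at -0.51, below 0 on both of its probes, while Mrc1, Cx3cr1 and Mertk were among those not measured. With spike-in scaling 11 of these 13 were above 0, against 24.4% of all measured genes. At that scale 6 were at least 2-fold higher and the median was 0.93. The dendritic cell list had a median of 0.44 over 8 measured genes, led by Cd74 (2.34) and Batf3 (1.24), with summed levels of 1.11 and 2.35. The marker lists were chosen with earlier results of these data known, so their counts and medians describe these arrays and are no independent support. In bulk RNA a different share of cells of a type and a different amount of RNA per cell cannot be told apart, and the part of these markers in the differences of Il1b and Il1r2 was not tested.

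Marker lists of mast cells, basophils and eosinophils, where Il1rl1 is typically expressed, differed less. Of 16 such genes 12 were measured, none was 2-fold higher or lower, the median was 0.11 and the summed levels were 2.51 and 2.76. Tpsb2 (-0.85) and Siglecf (0.78) had the widest differences of that list, and Cpa3, Tpsab1, Prg2 and Prg3 were not measured. Prg3 was well above background on the control array alone and at least 2.54-fold lower with MEF2C-ASR. Stem and progenitor markers had a median of 0.11 over 10 measured genes, with Ly6a at -1.53 and Erg at 0.95. B lineage markers had a median of 0.08 over 5 genes, with Cd79a at 1.15 and Blnk at -0.66, and T and NK lineage markers a median of -0.09 over 5, with Zap70 at -1.65 and Nkg7 at 1.23. Stromal and endothelial markers had a median of -0.06 over 5, with Pdgfrb at -1.81 and Col1a1 at 0.89. Other markers were well above background on 1 array alone. Lum was at least 10.98-fold lower with MEF2C-ASR (225 for control and 18.4 for MEF2C-ASR), and Procr at least 2.84-fold higher. For Gata3 (2.31-fold lower) and Irf4 of the dendritic cell list (2.19-fold higher) the value is the ratio of the readings and no lower limit. The defining genes Cd3d, Cd3g, Cd8a, Ebf1, Ms4a1, Cdh5 and Kdr were not measured.

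As a check of the labels, the Mef2c probe A_51_P135802 read 795 for control and 1969 for MEF2C-ASR, 2.54-fold higher, and the other Mef2c probe was not well above background on either. The files do not say where that probe lies relative to the deletion, so its control reading does not tell whether functional MEF2C was present. The slide and the scan were shared by both arrays, so neither separates the groups. Of all spots 60.1% (control) and 67.5% (MEF2C-ASR) were well above background, and the lowest level well above background was -5.05 and -5.96, so a probe could pass more easily on the MEF2C-ASR array. All 5 member probes that passed on just 1 of the arrays did so on the MEF2C-ASR array. Among all probes of the array, 3282 passed there and not on the control array. The reverse count over all probes is not given here, so the 5 do not set the members apart from other probes.

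**Figure D5:**
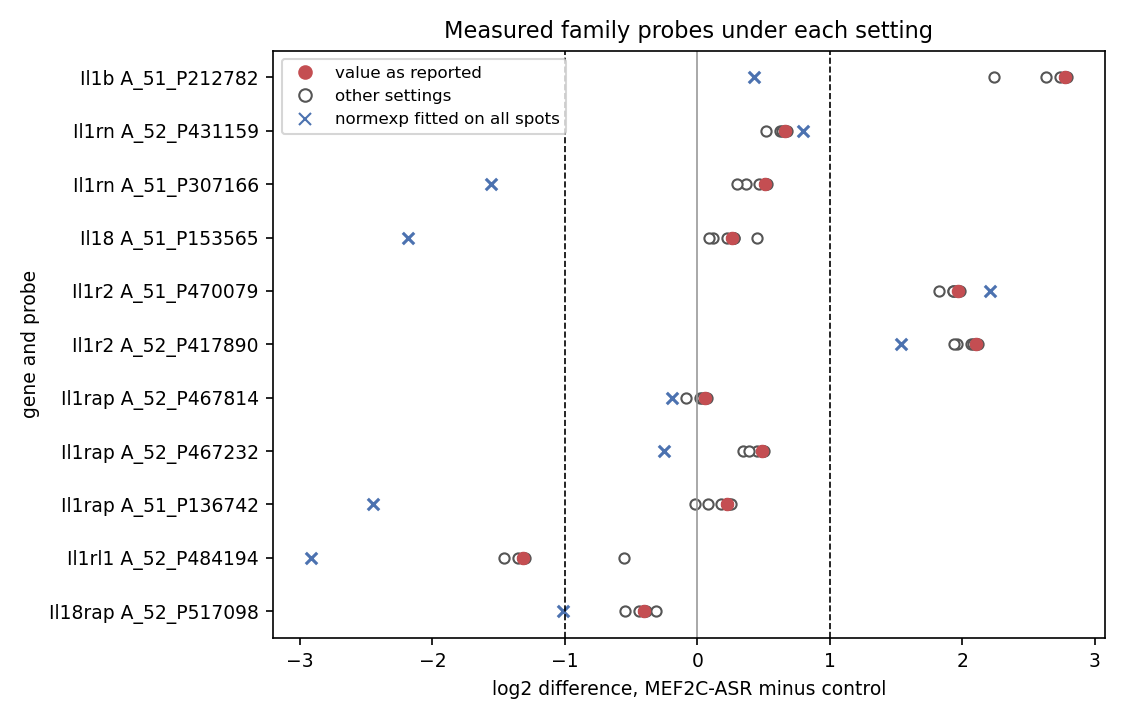
Log2 difference (MEF2C-ASR minus control) of the 11 measured member probes as reported (red), under the other settings (open circles) and with the normexp background model fitted on all spots (blue crosses); dashed lines mark 2-fold. Il1b and both Il1r2 probes stay above 2-fold in all open circles, and Il1rl1 crosses the line in 1 of them. The crosses lie far from the reported values for dim probes and for Il1b (0.43). They lie apart by less for some brighter probes, such as that of Il18rap (-1.01) and Il1r2 A_52_P417890 (1.54).

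Il1b stayed between 2.24 and 2.79, and the Il1r2 probes between 1.83 and 2.12, under 10 of the 11 other settings. Several of these could not change the values: no dim filter, a common floor, the deposited value table and keeping outlier spots. Median, percentile and spike-in scaling only shift all probes by a constant. The remaining setting, the normexp background model fitted on all spots, gave the Il1b probe 0.43, under 2-fold, and the Il1r2 probes 2.21 and 1.54, and it put Ccl2 at -0.41 and P2rx7 at -1.78. In that fit 5 spots of the control array, whose signal lay more than 50 under their local background, raised the dim spots of that array to a median of 1056, against 68.9 on the MEF2C-ASR array. Without those 5 spots the medians were 74.9 and 68.9, and Il1b stood at 2.24.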

How the data were processed

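Agilent Feature Extraction 9.5.1.1 produced the deposited intensity values, with background subtraction and detrending per the file headers; the deposited value table equals the processed signals. The software also set the deposited flags used here. Processed signals were put on the log2 scale, each array's 75th percentile over 43379 non-control spots was subtracted, outlier-flagged spots were dropped, and spots of a probe were averaged. Measured probes of a gene were averaged, and the gene was counted past 2-fold only where all of them had the same sign. A probe bright on 1 array was bounded by the higher of its own level on the dim array and that array's lowest level well above background. List genes were matched to GRCm38.p6 RefSeq names (22951 probes by accession, 6659 by symbol, 3109 by older symbol). Calculations used Python 3.11.15, pandas 2.3.3, numpy 2.4.6, R 4.3.3 and limma 3.58.1, and were tested on simulated data. With 1 array per group no test was possible. Named are all members, list genes past 2-fold (otherwise the 2 of highest level) and the 2 markers of widest difference per list. The members and lists were chosen with earlier results of these data known. Alternatives were other scalings, background corrections and filters, and keeping outlier spots.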

Additional observations from a re-analysis of the deposited data

How the results depend on the processing

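With 1 array per group, only the spotting error and the scanner software's own signal error are known. Differences between cultures, RNA pools and labelling are not covered. For the log2 difference, the scanner error was 0.22 for Il1b, 0.20 for both Il1r2 probes and 0.37 for the measured Il1rl1 probe. The counts of member probes past 2-fold, 3 higher and 1 lower, held under median, quantile and spike-in scaling and with a percentile over bright probes. Spike-in scaling moved the median of all probes by -0.14, and Il1rap then had probes of opposite sign, which made 1 such gene against 0. Normexp gave 1 such gene as well, Il1rn when fitted on all spots and Il1rap without the aberrant spots. Without a filter on dim probes 7 member probes were higher, 3 genes had probes of opposite sign and 10 pathway genes were higher, against 4 as reported. A common floor, or normexp fitted without the 5 aberrant spots, left 0 member probes lower. Normexp on all spots gave 5 member probes lower, 7 pathway genes higher and 8 lower, and put 38.7% of all probes at least 2-fold lower. Leaving out those 5 spots and keeping outlier spots were chosen after seeing the data. The median of the inflammasome list was 0.56 and that of the receptor signalling list -0.21 with normexp on all spots. The other counts stayed within 1.5 times.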
